A study of Mus musculus with 12 samples.

Results

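The genes described here code for 5 families of proteins that carry out or steer pre-mRNA splicing: the serine/arginine-rich (SR) proteins, the heterogeneous nuclear ribonucleoproteins (hnRNPs), the SF3 subunits of the U2 small nuclear ribonucleoprotein (snRNP), the snRNP polypeptides and the PRPF factors. They were chosen by symbol (Srsf, Hnrnp, Sf3a or Sf3b, Snrp and Prpf, followed by a number or letters). No measured value entered the symbol rule, but it was chosen with earlier results of these data known. Members were tested only if well above background on every array of some group. RefSeq held 71 symbols that matched, of which 64 had a named probe on the array, and 62 were tested among 13165 genes. Srsf11, Hnrnpa1l2-ps, Hnrnpa1l2-ps2, Snrp1c-ps1, Snrp1c-ps2, Snrpert and Srsf3-ps had no named probe. Srsf12, an SR protein, never passed Agilent's mark for signal well above background, and Snrpn, a neuronal Sm protein, passed it on 1 of 4 control arrays and on none of the others. Of the 62 tested genes, 61 were well above background on all 12 arrays. Hnrnph3 was the exception, with 4 of 4 arrays in LPS + IFNg + emodin cultures, 2 of 4 in LPS + IFNg cultures and 1 of 4 in control cultures, so it entered the test only through the group in which it was high.

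RNA came from peritoneal macrophages of wild-type C57BL/6 mice, plated, freed of non-adherent cells by washing after 2 h and kept overnight without serum before treatment. The first group of 4 samples received lipopolysaccharide (LPS, 100 ng/ml), interferon gamma (IFNg, 20 ng/ml) and emodin (50 µM), a plant anthraquinone, for 20 h. The second group of 4 received LPS and IFNg at the same doses and time without emodin, and the third group of 4 was a vehicle control of 20 h. Both stimulated groups were labelled as cells of female mice aged 9 weeks. Controls were labelled as cells of mice aged 8 weeks, 2 samples female and 2 male. Each RNA was hybridised to 1 one-colour Agilent array. Nothing states that samples of a group came from separate animals or cultures, so a p-value here speaks only of the spread among these arrays, and much of that spread may be technical. In each stimulated group replicate 3 differed from the others in its sex-linked signals, as given below, so those 4 arrays did not all come from the same mouse.

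Splicing removes introns in the spliceosome, a machine built from snRNPs, most of them a small RNA in a ring of Sm proteins with its own added polypeptides. SR proteins mostly bind exonic enhancers and recruit the machinery, whereas hnRNPs coat nascent RNA and often act at silencers, so that the balance between them helps to set which exons are kept. In macrophages answering to microbial products, splicing and its regulators shape many inflammatory transcripts, among them receptors and adaptors of the Toll-like receptor pathway.

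The promoter windows of 4 members are shown because these genes were among the 8 largest rises (Hnrnpc, Prpf6) and the 8 largest falls (Srsf3, Srsf2) after emodin, chosen after their values and motifs were seen. They are RefSeq windows of build GRCm38.p6 from 250 bases before to 50 bases after the most upstream start, written 5′ to 3′ in the direction of the gene, with capitals marking the ETS core (CCGGAA or its reverse complement) and the CCAAT box (CCAAT or its reverse complement). Hnrnpc lies at chr14:52103972-52104271 on the minus strand, Prpf6 at chr2:181601069-181601368 on the plus strand, Srsf3 at chr17:29032410-29032709 on the plus strand and Srsf2 at chr11:116853045-116853344 on the minus strand.
Hnrnpc: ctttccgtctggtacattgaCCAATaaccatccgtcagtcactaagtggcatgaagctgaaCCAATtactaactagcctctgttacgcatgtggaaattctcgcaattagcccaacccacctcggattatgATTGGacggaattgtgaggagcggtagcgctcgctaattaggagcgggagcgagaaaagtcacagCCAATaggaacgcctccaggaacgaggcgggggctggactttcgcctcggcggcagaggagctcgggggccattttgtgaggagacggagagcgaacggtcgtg
Prpf6: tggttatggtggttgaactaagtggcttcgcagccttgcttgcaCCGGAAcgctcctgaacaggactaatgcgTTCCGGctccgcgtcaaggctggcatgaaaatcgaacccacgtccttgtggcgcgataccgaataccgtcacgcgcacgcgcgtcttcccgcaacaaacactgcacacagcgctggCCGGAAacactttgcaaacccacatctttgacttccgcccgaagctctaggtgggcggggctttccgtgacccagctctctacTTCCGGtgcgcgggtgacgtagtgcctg
Srsf3: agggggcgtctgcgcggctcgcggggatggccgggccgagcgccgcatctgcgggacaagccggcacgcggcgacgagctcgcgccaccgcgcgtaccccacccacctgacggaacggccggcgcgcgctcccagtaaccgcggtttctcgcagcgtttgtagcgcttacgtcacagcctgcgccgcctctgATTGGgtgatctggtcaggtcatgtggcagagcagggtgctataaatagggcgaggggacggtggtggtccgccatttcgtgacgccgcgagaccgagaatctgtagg
Srsf2: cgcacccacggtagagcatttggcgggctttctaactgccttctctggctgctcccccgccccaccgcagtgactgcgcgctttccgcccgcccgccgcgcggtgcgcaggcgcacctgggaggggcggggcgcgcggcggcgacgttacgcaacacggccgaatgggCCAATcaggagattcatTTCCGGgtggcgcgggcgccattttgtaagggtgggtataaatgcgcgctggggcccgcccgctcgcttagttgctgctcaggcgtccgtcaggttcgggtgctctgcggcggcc
Hnrnpc held 4 CCAAT boxes and 0 ETS cores, Prpf6 held 4 ETS cores and 0 CCAAT boxes, Srsf3 held 1 CCAAT box and Srsf2 held 1 of each. Windows were found for 54 of the 62 tested members. The ETS core, bound by factors of the ETS family, occurred in 28 of the 54 member windows (51.9%), against 27.0% of 10525 windows of tested genes and 15.2% of 27025 windows of all genes. CCAAT, bound by NF-Y, occurred in 27 member windows (50%), against 38.8% of tested genes and 38.0% of all genes. The GC box GGGCGG stood in 36 member windows (66.7%), against 61.0% and 35.9%. The E-box CACGTG was in 8 member windows (14.8%, against 9.95% of tested genes), TATAAA in 6 (11.1%, against 8.26%) and the NRF1 motif in 0 (against 1.95%). Motifs of factors that act downstream of LPS and interferon were each in 6 windows or fewer. TTCNNNGAA, the STAT motif, was found in 6 member windows (11.1%, against 7.21% of tested genes), an NF-kB motif in 1 (1.85%, against 1.73%) and an interferon response element in 0 (against 3.23%). Both strands were searched for all 9 motifs. Median GC content was 59.5% in member windows, 60% in those of tested genes and 52.67% in those of all genes. Matches of different motifs overlapped in 1 member window for each of 4 pairs, ETS core with GC box, ETS core with STAT, CCAAT with GC box and GC box with NF-kB, and in 0 windows for the other pairs. A match is a description of these letters, not a binding site.

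Between 45.4% and 50.8% of spots were well above background, and Pearson correlations between arrays of a group were 0.991 to 0.997. The stimulus was visible in Nos2, the inducible nitric oxide synthase, which averaged 8.17 ± 0.16 in LPS + IFNg + emodin cultures, 9.63 ± 0.08 in LPS + IFNg cultures and -1.83 ± 0.41 in controls (SD, n = 4 each), on the log2 scale used throughout, the processed signal relative to the 75th percentile of its array. Mrc1, the mannose receptor, averaged 4.25 ± 0.36, 0.99 ± 0.45 and 3.92 ± 0.49 in the same order of groups. Macrophage markers Adgre1, Csf1r, Cd14, Lyz2, Itgam, Mertk, Gata6 and Icam2 were well above background on all arrays, and Timd4 was so on all arrays but those with emodin. Xist was not well above background, while the Y-linked Ddx3y and Eif2s3y were, on replicate 3 of both stimulated groups, both labelled female. Control replicates 3 and 4, labelled male, had Xist and no Y-linked gene well above background. Control arrays lay on a slide of their own and came from younger mice, so in each comparison with control the treatment, the slide and the age cannot be told apart. Spike-in signals of the controls were 9.89 to 10.3, so scaling to spike-ins was used only between the stimulated groups.

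With emodin added to LPS and IFNg, most hnRNP genes were higher relative to the other genes of the array, though not when arrays were scaled to spike-ins, and a few SR and PRPF genes were lower under both scalings. With limma, which fits a linear model to every gene and moderates its variance, 27 of 62 members were higher in LPS + IFNg + emodin cultures than in LPS + IFNg cultures at an adjusted p under 0.05, 12 were lower and 23 did not pass. That is 62.9% of the members, against 72.2% of all genes tested. The fit held group alone, without the pairing of same-numbered stimulated samples. The members' share higher, 43.5%, stood beside 36.6% of all genes, and their share lower, 19.4%, beside 35.6%. The groups' arrays did not overlap for 35 members (56.5%, against 67.7% of all genes). The median difference of the members was 0.16, and that of all genes 0.02. Differences were mostly small, with 5 members higher and 2 lower by 2-fold or more, while 26.5% of all genes were called at that size. Hnrnph3, tested only through the emodin arrays, counts among the 27 and the 5. Emodin arrays had a lower 75th percentile of raw signal, 435 to 547 units, against 764 to 951 units on LPS + IFNg arrays, whereas the mean log2 signals of 8 spike-in probes were 12.3 to 12.5 on emodin arrays and 12.4 to 12.5 on LPS + IFNg arrays, all on 1 slide. Scaling to the spike-ins instead moved every gene by the same -0.72, and with it 5 members were higher, 43 were lower, and the median difference of all genes was -0.70 and that of the members -0.56. Directions below are therefore relative to the other genes of the array. Scaling by quantiles gave 20 higher and 18 lower, the percentile over detected probes 21 and 18, and normexp background correction 20 and 17. The authors' deposited value table gave 20 and 19. Among the 61 members detected on all arrays, 26 were higher and 12 lower. Differences below are given ± SE. In a bulk RNA sample, fewer cells of a type and less RNA per cell cannot be told apart.

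**Figure D1:**
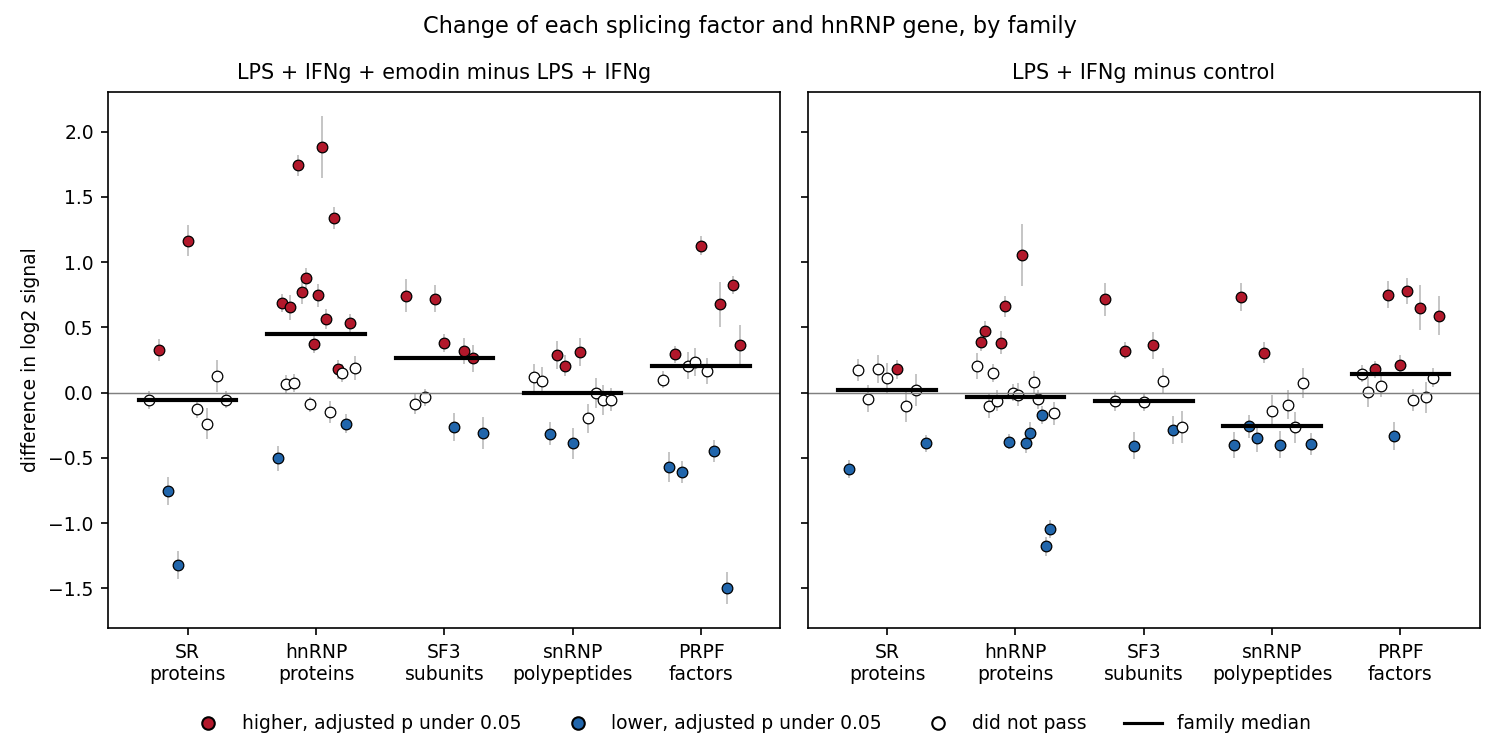
Difference in log2 signal of each of the 62 members (points, with standard errors as bars), by family, for LPS + IFNg + emodin minus LPS + IFNg on the left and LPS + IFNg minus control on the right, 4 arrays a group. On the left the hnRNP median is 0.45 (-0.27 when scaled to spike-ins) and the SR median -0.05, and on the right the snRNP median is -0.26.

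SR proteins went in both directions, 22.2% higher and 22.2% lower. Beside each family share after emodin stand 36.6% of all genes higher and 35.6% lower. Of 9 tested, 2 were higher and 2 lower after emodin, with a family median of -0.05 (-0.77 when scaled to spike-ins, with 1 higher and 8 lower). Srsf3, the smallest of the SR proteins and an adaptor of mRNA export, had log2 signals of 3.29, 3.09, 3.01 and 3.28 in LPS + IFNg + emodin cultures, against 4.47, 4.54, 4.49 and 4.46 in LPS + IFNg cultures. All 4 emodin values lay below all 4 others, and Srsf3 fell 2.5-fold (difference -1.32 ± 0.11, limma adjusted p = 4.45e-07). Srsf2, which binds exonic enhancers and is also known as SC35, had 1.10, 1.19, 1.29 and 1.15 in LPS + IFNg + emodin cultures, against 1.67, 2.06, 2.13 and 1.89 in LPS + IFNg cultures. Its groups did not overlap either, and it fell 1.69-fold (difference -0.75 ± 0.10, adjusted p = 3.91e-05). Srsf4, a larger SR protein with a long arginine/serine domain, went the other way. Its signals were 3.37, 3.48, 3.69 and 3.39 in LPS + IFNg + emodin cultures, against 2.04, 2.38, 2.59 and 2.26 in LPS + IFNg cultures, a 2.24-fold rise without overlap (difference 1.17 ± 0.12, adjusted p = 4.07e-06). Srsf10, a splicing repressor when dephosphorylated, rose by 0.33 ± 0.08. Srsf1, the founding SR protein, and Srsf7, a further export adaptor, did not pass, with differences of -0.05 ± 0.07 and 0.13 ± 0.12. Neither did Srsf5, Srsf6 and Srsf9, at -0.12 ± 0.07, -0.24 ± 0.12 and -0.05 ± 0.06, although the other probe of Srsf6 was called higher, at 0.59 ± 0.14.

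The hnRNP family held Hnrnpc and Hnrnpll, the largest rises among the 61 members detected on all arrays. Of 20 tested, 12 were higher (60%) and 2 lower (10%). The family median was 0.45 (-0.27 when scaled to spike-ins, with 3 higher and 10 lower). Hnrnpc, which binds uridine tracts of nascent RNA, had 7.07, 6.96, 7.12 and 6.99 in LPS + IFNg + emodin cultures, against 5.38, 5.29, 5.19 and 5.32 in LPS + IFNg cultures. The emodin arrays stood well apart, a rise of 3.35-fold (difference 1.74 ± 0.08, adjusted p = 5.22e-09), and with spike-in scaling the difference was still 1.02 ± 0.12 (adjusted p = 1.64e-05). Hnrnpll, known in T cells for the switch of CD45 isoforms, had 5.28, 5.03, 5.39 and 5.05 in LPS + IFNg + emodin cultures, against 3.90, 3.86, 3.76 and 3.86 in LPS + IFNg cultures. It rose 2.53-fold with no overlap (difference 1.34 ± 0.08, adjusted p = 6.12e-08). Hnrnph3, a small relative of hnRNP H and F, lay close to background, with -2.33, -2.02, -1.89 and -2.34 in LPS + IFNg + emodin cultures, against -3.93, -3.91, -4.20 and -4.06 in LPS + IFNg cultures, where 2 arrays were not well above background. Its measured difference was 1.88, given as a description because the filter passed it through the emodin arrays. It counts among the 12 higher, and among the 3 when scaled to spike-ins. Hnrnpd, also called AUF1 and a binder of AU-rich elements in short-lived cytokine mRNAs, had 4.80, 4.88, 4.91 and 4.94 in LPS + IFNg + emodin cultures, against 3.87, 4.23, 4.18 and 4.18 in LPS + IFNg cultures. It rose by 0.77 ± 0.09 (adjusted p = 8.94e-06), as did its relative Hnrnpdl by 0.88 ± 0.08, although Hnrnpdl's probes were opposed, as given below. Hnrnpa1, a classical splicing silencer protein, had 3.40, 3.30, 3.23 and 3.39 in LPS + IFNg + emodin cultures, against 2.72, 2.65, 2.55 and 2.64 in LPS + IFNg cultures, a rise of 1.61-fold. Processed copies of this gene have no named probe here, and signal from near-identical copies cannot be told apart from that of the gene. Hnrnpk, which binds cytidine-rich RNA, rose by 0.56 ± 0.08, Hnrnpul1 by 0.53 ± 0.07 and Hnrnpa3 by 0.66 ± 0.10. The closely related Hnrnph2 and Hnrnph1, which bind G-rich tracts, rose by 0.75 ± 0.09 and 0.37 ± 0.06, and Hnrnpm, a binder of GU-rich RNA, by 0.18 ± 0.07. Only Hnrnpa0, an AU-rich element binder, and Hnrnpu, a nuclear scaffold protein, fell among these 20, with differences of -0.50 ± 0.10 and -0.24 ± 0.07. The probes of Hnrnpa0, and those of Hnrnpa3, were opposed, as given below. Hnrnpl, which binds CA repeats, and Hnrnpa2b1, a relative of Hnrnpa1, had differences of -0.15 ± 0.09 and 0.06 ± 0.07 and did not pass. The other 4 that did not pass, Hnrnpf, Hnrnpab, Hnrnpr and Hnrnpul2, lay at -0.09 ± 0.06, 0.08 ± 0.07, 0.15 ± 0.07 and 0.19 ± 0.09. The other probe of Hnrnpa2b1 was called lower, at -0.27 ± 0.08, and that of Hnrnpf higher, at 0.26 ± 0.08.

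**Figure D2:**
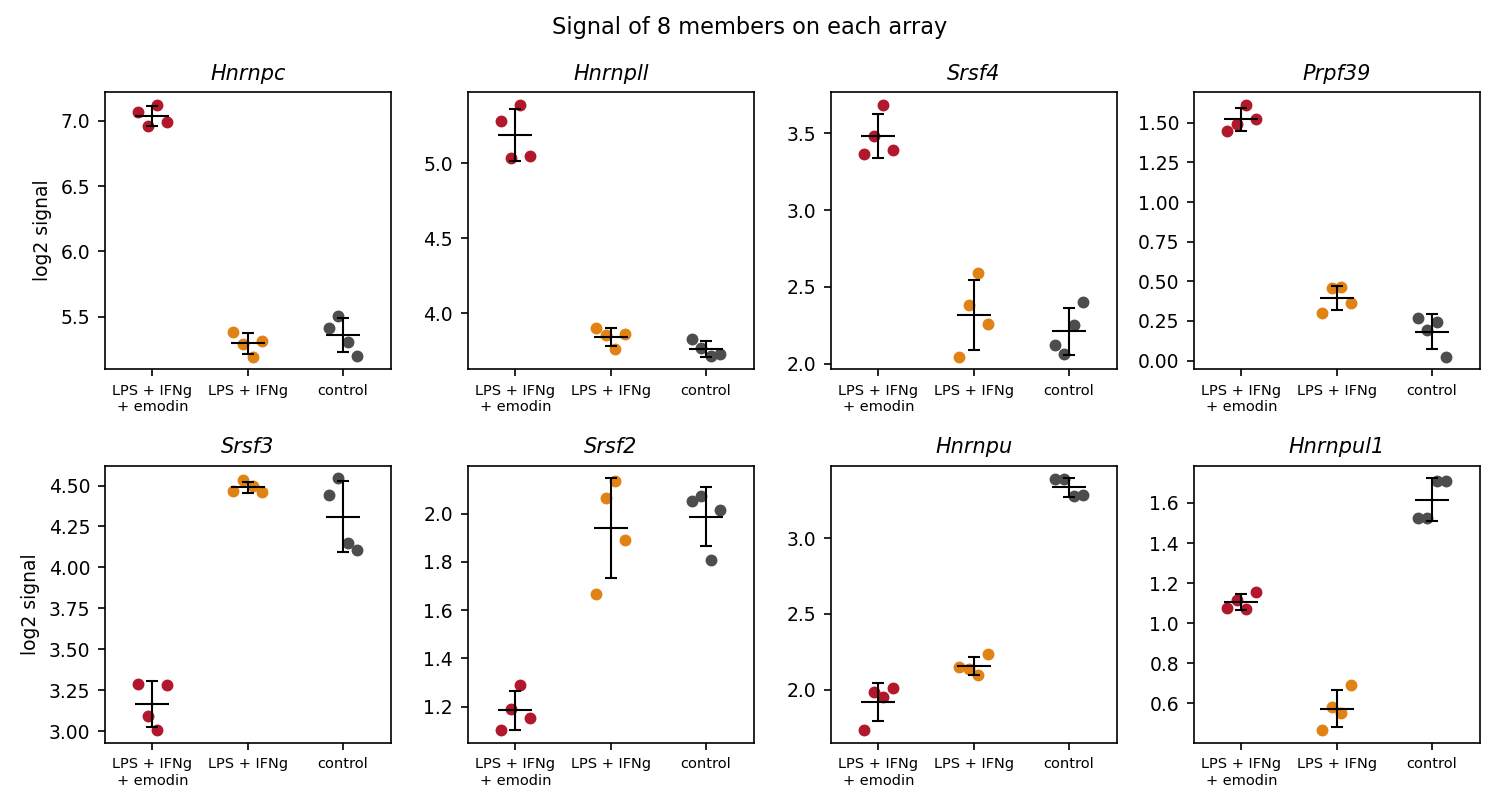
Log2 signal, relative to the 75th percentile of the array, of 8 members on each array (points), with the mean and SD of 4 arrays (black bars) in LPS + IFNg + emodin, LPS + IFNg and control cultures. Hnrnpc, Hnrnpll, Srsf4 and Prpf39 stand higher and Srsf3 and Srsf2 lower on emodin arrays, while Hnrnpu and Hnrnpul1 are highest in controls.

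SF3 subunits, which hold the U2 snRNP at the branch point, were 5 higher (55.6%) and 2 lower (22.2%) of 9. Their median was 0.26 (-0.46 when scaled to spike-ins, with 0 higher and 5 lower). Sf3a1, a scaffold of the SF3a part, had 3.79, 3.83, 3.83 and 3.76 in LPS + IFNg + emodin cultures, against 2.79, 3.24, 3.14 and 3.06 in LPS + IFNg cultures. It rose 1.67-fold with no overlap (difference 0.74 ± 0.13, adjusted p = 0.000212). Sf3b1, which clamps the branch-site helix, had -1.90, -1.48, -1.53 and -1.72 in LPS + IFNg + emodin cultures, against -2.35, -2.48, -2.32 and -2.34 in LPS + IFNg cultures, and rose by 0.72 ± 0.10. Sf3b2, Sf3b4 and Sf3b5 rose by 0.38 ± 0.07, 0.32 ± 0.10 and 0.26 ± 0.11, although the probes of Sf3b4 were opposed, as given below. Sf3b6, which sits next to the branch-point adenosine, and Sf3b3 fell, with differences of -0.31 ± 0.12 and -0.27 ± 0.11. Sf3a2 and Sf3a3 did not pass, at -0.09 ± 0.08 and -0.04 ± 0.07.

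Sm and other snRNP polypeptides showed small differences. Of 11 tested, 3 were higher (27.3%), 2 lower (18.2%) and 6 did not pass, none of them by 2-fold. The median was 0.00 (-0.72 when scaled to spike-ins, with 0 higher and 11 lower). Snrpd1 and Snrpb, both of the Sm ring, fell, with differences of -0.39 ± 0.12 and -0.32 ± 0.09. Snrpd2, their partner in the ring, rose by 0.31 ± 0.11 (adjusted p = 0.0189), Snrpb2 of the U2 snRNP by 0.29 ± 0.11 and Snrpc of the U1 snRNP by 0.21 ± 0.08. Without LPS + IFNg replicate 3 the call of Snrpd2 was lost (adjusted p = 0.0542). That of Snrpb2 was lost without emodin replicate 4 or LPS + IFNg replicate 2, 3 or 4 (adjusted p = 0.0562 to 0.0907) and with the replicate number as a block (adjusted p = 0.0582). The other Sm proteins Snrpd3, Snrpe, Snrpf and Snrpg had differences of -0.20 ± 0.11, 0.00 ± 0.12, -0.06 ± 0.11 and -0.05 ± 0.09 and did not pass. Snrpa of the U1 snRNP had 0.12 ± 0.10 and Snrpa1 of the U2 snRNP 0.09 ± 0.11, neither past the threshold, although the other probe of Snrpa1 was called higher, at 0.21 ± 0.07.

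PRPF factors, named after yeast genes of pre-mRNA processing, were 5 higher (38.5%) and 4 lower (30.8%) of 13. Their median was 0.21 (-0.51 when scaled to spike-ins, with 1 higher and 9 lower). Prpf4b, a kinase bound to the spliceosome, had -1.73, -1.66, -2.07 and -1.41 in LPS + IFNg + emodin cultures, against -0.42, -0.14, -0.13 and -0.19 in LPS + IFNg cultures. It had the largest fall of any member by its brightest probe, 2.83-fold (difference -1.50 ± 0.12, adjusted p = 4.64e-07). Prpf39, a U1-associated factor, had 1.45, 1.50, 1.62 and 1.52 in LPS + IFNg + emodin cultures, against 0.30, 0.46, 0.46 and 0.37 in LPS + IFNg cultures, and rose 2.18-fold with no overlap (difference 1.12 ± 0.07, adjusted p = 7.86e-08). Prpf6, a bridge within the tri-snRNP, had 4.79, 4.63, 4.50 and 4.77 in LPS + IFNg + emodin cultures, against 3.81, 3.86, 3.86 and 3.87 in LPS + IFNg cultures, a rise of 1.77-fold. Prpf31, which binds the U4 RNA, had 4.33, 4.45, 4.38 and 4.48 in LPS + IFNg + emodin cultures, against 5.05, 5.09, 4.91 and 5.02 in LPS + IFNg cultures, and fell 1.52-fold (adjusted p = 5.26e-05). Prpf19, the ubiquitin ligase of its own complex, fell, with a difference of -0.57 ± 0.11. Prpf8, the protein at the catalytic centre, was higher by 0.37 ± 0.15 (adjusted p = 0.0409), a call lost when emodin replicate 2 or 3, LPS + IFNg replicate 1 or 4 or control replicate 3 was left out (adjusted p = 0.0517 to 0.122). Prpf40b, a U1-associated factor, and Prpf3, of the U4/U6 snRNP, rose by 0.68 ± 0.17 and 0.29 ± 0.06. Prpf4, Prpf18, Prpf38a and Prpf38b did not pass, with Prpf4 at 0.17 ± 0.10, Prpf18 at 0.10 ± 0.06, Prpf38a at 0.21 ± 0.10 and Prpf38b at 0.24 ± 0.11. The other probe of Prpf38b was called higher, at 0.25 ± 0.09. With quantile scaling Prpf8, Snrpd2, Snrpb2 and Sf3b4 did not pass, at 0.085, 0.17, 0.16 and 0.19.

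LPS and IFNg alone were next set against the vehicle control, where Hnrnpu and Hnrnpul1 had the largest falls and Prpf4, Prpf38a, Snrpa1 and Sf3a1 were among the largest rises. In LPS + IFNg cultures 17 members were higher than in control, 16 were lower and 29 did not pass, which is 53.2% of the members called, against 69.1% of all genes. Higher members were 27.4% (33.6% of all genes) and lower ones 25.8% (35.5% of all genes). Groups did not overlap for 27 members (43.5%, against 64.4% of all genes). The median was -0.01 for members and -0.04 for all genes, and only 1 member was higher and 2 lower by 2-fold or more, while 26.3% of all genes were called at that size. The 1 higher by 2-fold was Hnrnph3, close to background and tested only through the emodin arrays, and it counts among the 17. With quantile scaling the counts were 12 higher and 25 lower, at an all-gene median of -0.13, and the members' median was then also -0.13. The detected-probe percentile gave 13 higher and 21 lower, and 12 were higher and 25 lower in the authors' deposited values. The comparison shares its 4 LPS + IFNg arrays with the one above, so values of both are only set side by side.

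The largest fall was that of Hnrnpu, with 2.15, 2.14, 2.10 and 2.24 in LPS + IFNg cultures, against 3.39, 3.39, 3.28 and 3.28 in control cultures. All 4 stimulated values lay below the controls, a 2.26-fold fall (difference -1.18 ± 0.07, adjusted p = 3.93e-08), and the emodin arrays were lower still at 1.73, 1.98, 1.95 and 2.01. Hnrnpul1, an hnRNP U relative with a part in the response to DNA breaks, had 0.46, 0.58, 0.55 and 0.69 in LPS + IFNg cultures, against 1.52, 1.52, 1.71 and 1.71 in control cultures. It fell 2.07-fold (difference -1.05 ± 0.07, adjusted p = 9.78e-08), and its emodin arrays lay between both groups at 1.08, 1.11, 1.07 and 1.15. Hnrnpf, Hnrnpk, Hnrnpl and Hnrnpr were lower, with differences of -0.38 ± 0.06, -0.39 ± 0.08, -0.31 ± 0.09 and -0.17 ± 0.07. Without the 4 arrays whose sex-linked signals went against their labels, Hnrnpl did not pass (-0.29, adjusted p = 0.0527). Hnrnpdl, Hnrnpa2b1, Hnrnpa1 and Hnrnpd rose by 0.66 ± 0.08, 0.47 ± 0.07, 0.39 ± 0.07 and 0.38 ± 0.09. Hnrnph3, close to background in both groups, had -3.93, -3.91, -4.20 and -4.06 in LPS + IFNg cultures, against -5.88, -5.08, -4.86 and -4.49 in control cultures, a measured difference of 1.05 with 2 of 4 and 1 of 4 arrays well above background. Hnrnpc, so much higher with emodin, had 5.38, 5.29, 5.19 and 5.32 in LPS + IFNg cultures, against 5.41, 5.51, 5.31 and 5.20 in control cultures, an overlapping pair of groups with a difference of -0.06 ± 0.08 (adjusted p = 0.5). In the hnRNP family 5 were higher (25%), Hnrnph3 among them, and 6 lower (30%), beside 33.6% and 35.5% of all genes. The family median was -0.03 (0.06 with normexp background correction).

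Srsf1 had 2.16, 2.21, 2.29 and 2.25 in LPS + IFNg cultures, against 2.89, 2.95, 2.73 and 2.68 in control cultures, and fell 1.5-fold by its brightest probe (difference -0.59 ± 0.07, adjusted p = 1.35e-05), although its other 2 probes gave 0.09 ± 0.09 and -0.04 ± 0.10. Srsf9, a close relative of Srsf1, fell, with a difference of -0.39 ± 0.06. Srsf2, Srsf3 and Srsf4 did not pass, with differences of -0.05 ± 0.10, 0.18 ± 0.11 and 0.11 ± 0.12. Among the SF3 subunits, Sf3a1 rose, with 2.79, 3.24, 3.14 and 3.06 in LPS + IFNg cultures, against 2.21, 2.07, 2.45 and 2.65 in control cultures (difference 0.71 ± 0.13, adjusted p = 0.000303), and Sf3b1 fell, with a difference of -0.41 ± 0.10, a call lost with normexp background correction (-0.20, adjusted p = 0.0668). Sf3b3 and Sf3a3 rose by 0.36 ± 0.11 and 0.32 ± 0.07, and Sf3b5 was lower at -0.29 ± 0.11. Among 11 snRNP polypeptides, 5 fell (45.5%) and 2 rose (18.2%), beside 35.5% of all genes lower and 33.6% higher. The family median of -0.26 stayed below 0 under the scalings tried. By array, family medians relative to the control mean were -0.07, -0.28, -0.36 and -0.25 in LPS + IFNg cultures. Those of controls were 0.09, 0.19, -0.03 and -0.29, so control replicate 4 lay within the range of the LPS + IFNg arrays. Snrpa, Snrpg, Snrpd2, Snrpb2 and Snrpb had differences of -0.40 ± 0.10, -0.39 ± 0.09, -0.40 ± 0.11, -0.35 ± 0.11 and -0.26 ± 0.09. The call of Snrpb was lost without LPS + IFNg replicate 2 or 3 or control replicate 1 or 2 (adjusted p = 0.0509 to 0.0729). Snrpa1 went the other way, with 3.46, 3.52, 3.36 and 3.49 in LPS + IFNg cultures, against 2.76, 2.81, 2.77 and 2.57 in control cultures, a rise of 1.66-fold. PRPF factors were 6 higher (46.2%) and 1 lower (7.69%) of 13, beside the same shares of all genes. Their median of 0.15 stayed above 0 under the scalings tried. Prpf4 and Prpf38a, a tri-snRNP protein and a factor of the precatalytic spliceosome, rose by 0.78 ± 0.10 and 0.75 ± 0.10, Prpf8 by 0.59 ± 0.15 and Prpf40b by 0.65 ± 0.17. Prpf38b was the one lower, at -0.33 ± 0.11, but its other probe was called higher, at 0.33 ± 0.09. The call of Prpf8 was lost with quantile scaling (0.37, adjusted p = 0.108) and in the authors' deposited values (0.37, adjusted p = 0.112).

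LPS + IFNg + emodin cultures were also set against the vehicle control, which shares arrays with both comparisons above. There 29 members were higher, 20 lower and 13 did not pass, which is 79.0% of the members, against 78% of all genes. Higher members were 46.8% (39.8% of all genes) and lower ones 32.3% (38.2% of all genes), and 10 higher and 3 lower members reached 2-fold, against 38.5% of all genes. Groups did not overlap for 44 members (71.0%, against 72.6%). With quantile scaling the counts were 22 higher and 27 lower, at an all-gene median of -0.14 in place of 0.02. The detected-probe percentile also gave 22 and 27, and 20 were higher and 28 lower in the authors' deposited values. Hnrnpc, Hnrnpdl and Sf3a1 had the largest rises among members detected on all arrays, 1.68 ± 0.08, 1.54 ± 0.08 and 1.46 ± 0.13. The other probe of Hnrnpdl was called lower, at -0.44 ± 0.07. Hnrnph3 had a measured difference of 2.93, with 1 of 4 control arrays well above background. It was tested only through the emodin arrays, and it counts among the 29 higher and the 10 at 2-fold. Prpf4b, Hnrnpu, Srsf3 and Srsf2 had the largest falls, -1.54 ± 0.12, -1.42 ± 0.07, -1.14 ± 0.11 and -0.80 ± 0.10. PRPF factors were 8 higher (61.5%) and 4 lower (30.8%), beside the shares of all genes above. SR proteins were 2 higher (22.2%) and 5 lower (55.6%).

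Some members are best read over all 3 groups. Sf3a1 stepped through the groups without overlap, averaging 3.80 ± 0.03 in LPS + IFNg + emodin cultures, 3.06 ± 0.19 in LPS + IFNg cultures and 2.34 ± 0.25 in controls (SD, n = 4 each). Hnrnpdl did likewise by its brightest probe, at 6.46 ± 0.10, 5.58 ± 0.07 and 4.92 ± 0.14 in that order, and Hnrnpa1 at 3.33 ± 0.08, 2.64 ± 0.07 and 2.26 ± 0.08. The other probe of Hnrnpdl did not, with -0.33 ± 0.07 after emodin and -0.11 ± 0.07 in LPS + IFNg against control (SE). Hnrnpk had its lowest level in LPS + IFNg cultures, with 3.63 ± 0.11 in LPS + IFNg + emodin cultures, 3.06 ± 0.05 in LPS + IFNg cultures and 3.45 ± 0.10 in controls. The emodin and control arrays of Hnrnpk overlapped. LPS + IFNg cultures also had the lowest level of Sf3b1, at -1.65 ± 0.19, -2.37 ± 0.07 and -1.97 ± 0.15, of Snrpd2 at 5.69 ± 0.03, 5.38 ± 0.10 and 5.78 ± 0.24 and of Snrpb2 at 4.42 ± 0.13, 4.13 ± 0.04 and 4.48 ± 0.23. For Snrpd2 and Snrpb2 the emodin arrays overlapped with the controls, and so did the LPS + IFNg arrays, while the stimulated groups did not overlap. Prpf40b, with -0.21 ± 0.30, -0.88 ± 0.26 and -1.53 ± 0.23, overlapped between the stimulated groups.

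Probes of one gene did not always move together. Of 26 members with several kept probes, 4 had probes called in opposite directions after emodin, 4 in LPS + IFNg against control and 5 in emodin against control. Hnrnpc was steady, its other probe differing by 1.80 ± 0.08 after emodin, and the 3 probes of Srsf3 had differences of -1.32, -1.17 and -0.94. The other probe of Srsf2 gave -1.23 and that of Prpf4b -0.81. Hnrnpa3, with 7 probes, ranged between -0.47 and 1.29 after emodin, 4 of its probes being called higher and 1 lower. Hnrnpdl had a brightest probe at 0.88 and another at -0.33 ± 0.07, called lower. Sf3b4 was split as well, at 0.32 and -0.59 ± 0.13, and Hnrnpa0 at -0.50 and 0.19 ± 0.07. In LPS + IFNg against control, the probes of Prpf39 gave 0.21, a call lost without LPS + IFNg replicate 2 or 3 or control replicate 4 (adjusted p = 0.0527 to 0.0594), and -0.80 ± 0.11 and those of Hnrnpa2b1 0.47 and -0.26 ± 0.08. With the mean of the probes, Hnrnpa0 after emodin (-0.16, adjusted p = 0.084) and Hnrnpa2b1 in LPS + IFNg against control (0.11, adjusted p = 0.201) did not pass. In emodin against control the 5 were Hnrnpa3, Hnrnpdl, Hnrnpa2b1, Sf3b4 and Srsf10. The transcripts that each probe matches were not examined.

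**Figure D3:**
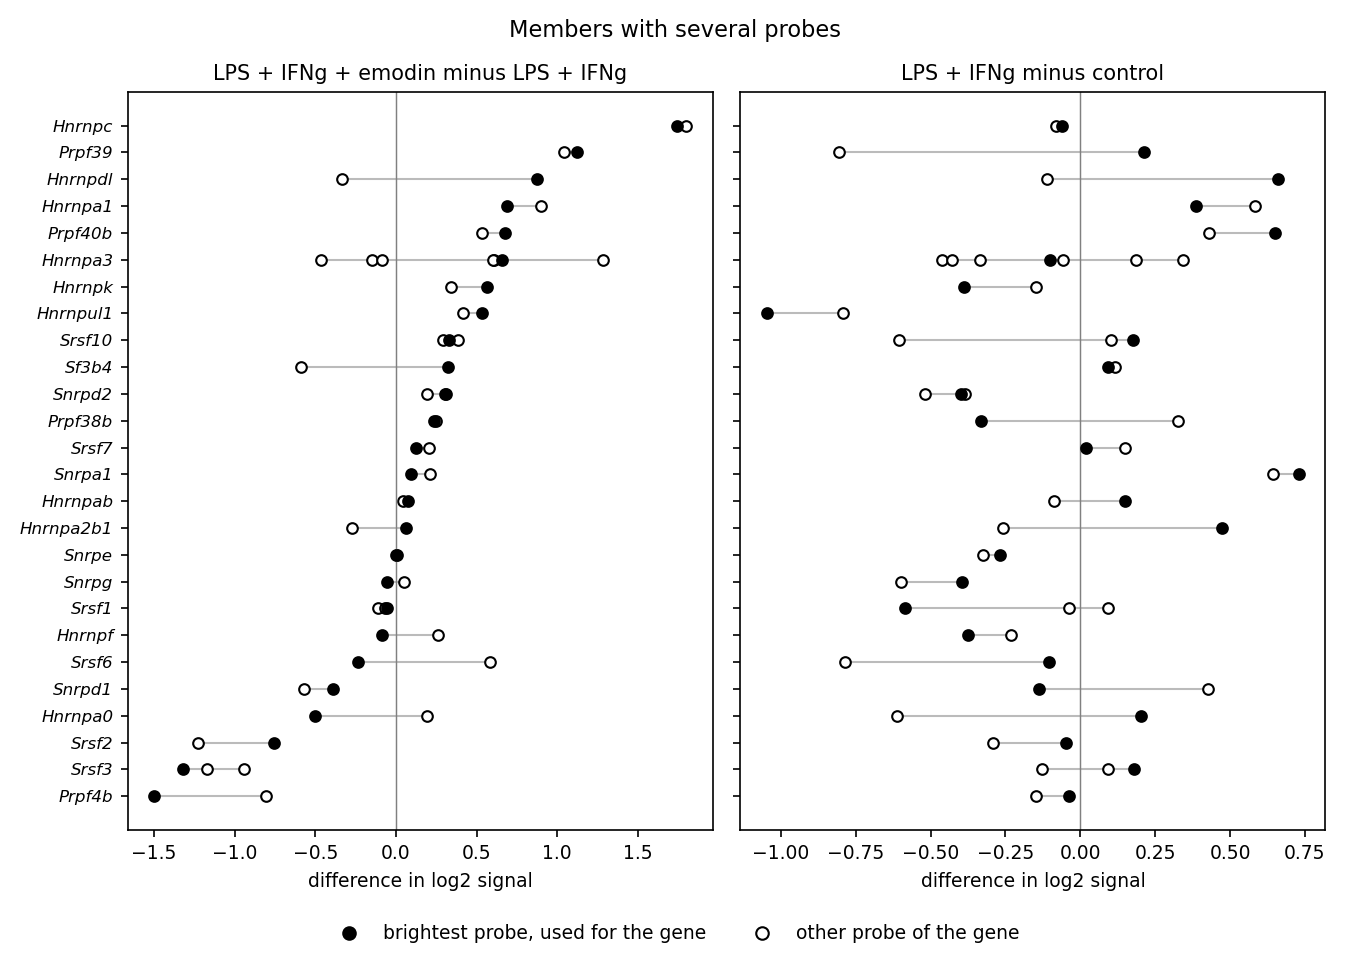
Difference in log2 signal for each kept probe of the 26 members with several probes, for LPS + IFNg + emodin minus LPS + IFNg (left) and LPS + IFNg minus control (right). Filled points are the brightest probe, which stands for the gene, and open points the others. Hnrnpc and Srsf3 keep their direction after emodin over all their probes, whereas Hnrnpa3, Hnrnpdl, Sf3b4 and Hnrnpa0 lie on both sides of 0.

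Other genes of the pathway were taken from lists of splicing genes outside the 5 families. Beside each count below stand 36.6% of all genes higher, 35.6% lower and 72.2% called. Kinases that phosphorylate SR proteins, with their phosphatase and importers, were 8 higher and 1 lower of 10 after emodin (90% called), with a median of 0.85 that stayed above 0 under the scalings tried (0.13 when scaled to spike-ins, with 4 higher and 4 lower). Clk4, a dual-specificity kinase of SR proteins, had 5.26, 5.15, 5.45 and 4.96 in LPS + IFNg + emodin cultures, against 3.11, 3.20, 3.18 and 3.15 in LPS + IFNg cultures. It rose by 2.04 ± 0.09 (adjusted p = 4.89e-09), whereas LPS + IFNg against control gave 0.07 ± 0.09. Its relatives Clk1, Clk3 and Clk2 rose by 1.23 ± 0.07, 0.95 ± 0.06 and 0.76 ± 0.08. Dyrk1a, a related kinase, had 3.36, 3.47, 3.61 and 3.37 in LPS + IFNg + emodin cultures, against 1.45, 1.90, 1.86 and 1.61 in LPS + IFNg cultures, a difference of 1.75 ± 0.11. Of the cytoplasmic SR kinases, Srpk1 rose by 0.35 ± 0.07 and Srpk2 did not pass at -0.19 ± 0.10. Tnpo1 and Tnpo3, importins of hnRNP A1 and of SR proteins, rose by 1.12 ± 0.06 and 0.20 ± 0.06, and the phosphatase subunit Ppp1ca fell, with a difference of -0.38 ± 0.07. Srpk3 was not tested.

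**Figure D4:**
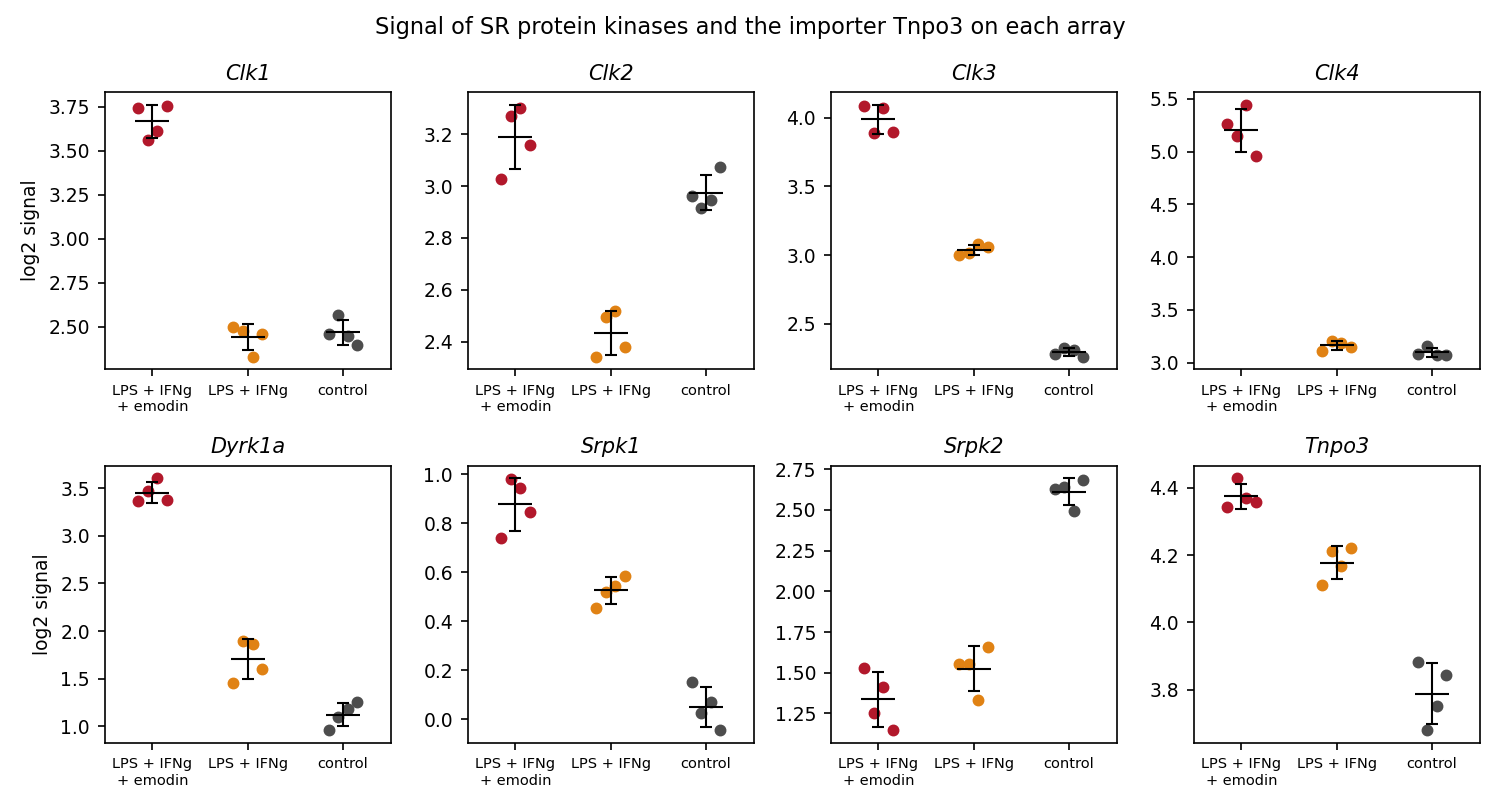
Log2 signal, relative to the 75th percentile of the array, of 7 kinases of SR proteins and the importer Tnpo3 on each array (points), with the mean and SD of 4 arrays (black bars). Clk1, Clk3, Clk4 and Dyrk1a are highest on the 4 LPS + IFNg + emodin arrays, and Srpk2 is highest in controls.

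Splice site recognition genes were 8 higher and 0 lower of 15 (53.3% called), with 7 not passing and a median of 0.22 (-0.50 when scaled to spike-ins, with 0 higher and 10 lower). Zrsr2, of the minor spliceosome, and Sf1, which first binds the branch point, rose by 1.00 ± 0.13 and 0.80 ± 0.12. The SMN complex and the enzymes that methylate Sm proteins went the other way, 3 higher and 8 lower of 15 (73.3% called), with a median of -0.27 that stayed below 0 under the scalings tried (-0.99 when scaled to spike-ins, with 0 higher and 13 lower). Gemin4, of the SMN complex, and Prmt1, an arginine methyltransferase, fell, with differences of -0.97 ± 0.16 and -0.92 ± 0.10. Other snRNP and Sm-like proteins were 8 higher and 8 lower of 25 (64% called), and 1 and 20 when scaled to spike-ins. Snrnp48, of the minor U11/U12 snRNP, rose by 1.62 ± 0.10 and Lsm7, of the ring that caps U6 RNA, fell, with a difference of -1.46 ± 0.10. Helicases and the PRP19 complex were 9 higher and 5 lower of 23 (60.9% called), and 1 and 15 when scaled to spike-ins, with Isy1 at 1.38 ± 0.11 and Crnkl1 at -0.94 ± 0.10. SR-related proteins were 8 higher and 4 lower of 19 (63.2% called), and 1 and 10 when scaled to spike-ins, with Srrm1 at 1.61 ± 0.18 and Bclaf1 at -1.10 ± 0.09. Other RNA-binding regulators were 16 higher and 10 lower of 38 (68.4% called), and 4 and 25 when scaled to spike-ins. Celf2 and Ralyl fell, with differences of -2.37 ± 0.14 and -2.32 ± 0.19. Ralyl was well above background on only 2 of 4 emodin arrays. The exon junction complex and nonsense-mediated decay genes were 6 higher and 2 lower of 14 (57.1% called), and 0 and 9 when scaled to spike-ins, with Magohb, a core junction protein, at -2.76 ± 0.18.

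Markers of other cells moved too, and their part in these differences was not tested. Beside each marker count after emodin stand 36.6% of all genes higher and 35.6% lower. After emodin, 6 of 8 tested neutrophil markers were higher and 2 lower, and their summed signal, linear and relative to the 75th percentile, was 106 to 171 in LPS + IFNg + emodin cultures, against 94.8 to 105 in LPS + IFNg cultures. Their sum was 92.5 to 111 in controls. Mpo, among the 6 higher, was well above background on 4 emodin arrays, 0 LPS + IFNg arrays and 2 control arrays. It was therefore tested only through the group in which it was high, and its rise is a description. Ltf and S100a9, also among the 6 higher, were well above background on 2 and 3 emodin arrays and on 0 LPS + IFNg arrays. Their rises thus start from background. Elane, Csf3r and Mmp8, higher, and Camp and S100a8, lower, were well above background on all arrays. Retnlg and Cxcr2 were above background on none of the stimulated arrays, and Ngp on none at all. Of 10 mesothelial and fibroblast markers 0 were higher and 5 lower, with sums of 10.9 to 35.5 in LPS + IFNg + emodin cultures, against 69.3 to 134 in LPS + IFNg cultures, and 17.0 to 73.2 in controls. In that list Lrrn4 and Upk3b were not well above background on any stimulated array. Of 6 lymphocyte markers tested 2 were higher and 4 lower, with sums of 11.8 to 12.5 in LPS + IFNg + emodin cultures, 7.95 to 9.74 in LPS + IFNg cultures and 11.3 to 12.6 in controls, and Cd79a and Klrb1c were above background on none of the stimulated arrays. Gzma, among the 4 lower, was tested only through the LPS + IFNg arrays, with 0 emodin arrays and 3 control arrays well above background. Of 6 mast cell and eosinophil markers 1 was higher and 0 lower, with sums of 1.01 to 1.83 in LPS + IFNg + emodin cultures, 0.767 to 1.59 in LPS + IFNg cultures and 1.56 to 2.36 in controls, and Epx and Prg2 were above background nowhere. Of 9 macrophage markers 2 were higher and 6 lower, with sums of 456 to 546 in LPS + IFNg + emodin cultures, 373 to 430 in LPS + IFNg cultures and 547 to 563 in controls. Without the 4 arrays whose sex-linked signals went against their labels, an alternative added after seeing the data, 24 members were higher and 12 lower after emodin, and 14 were higher and 19 lower in LPS + IFNg against control.

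**Figure D5:**
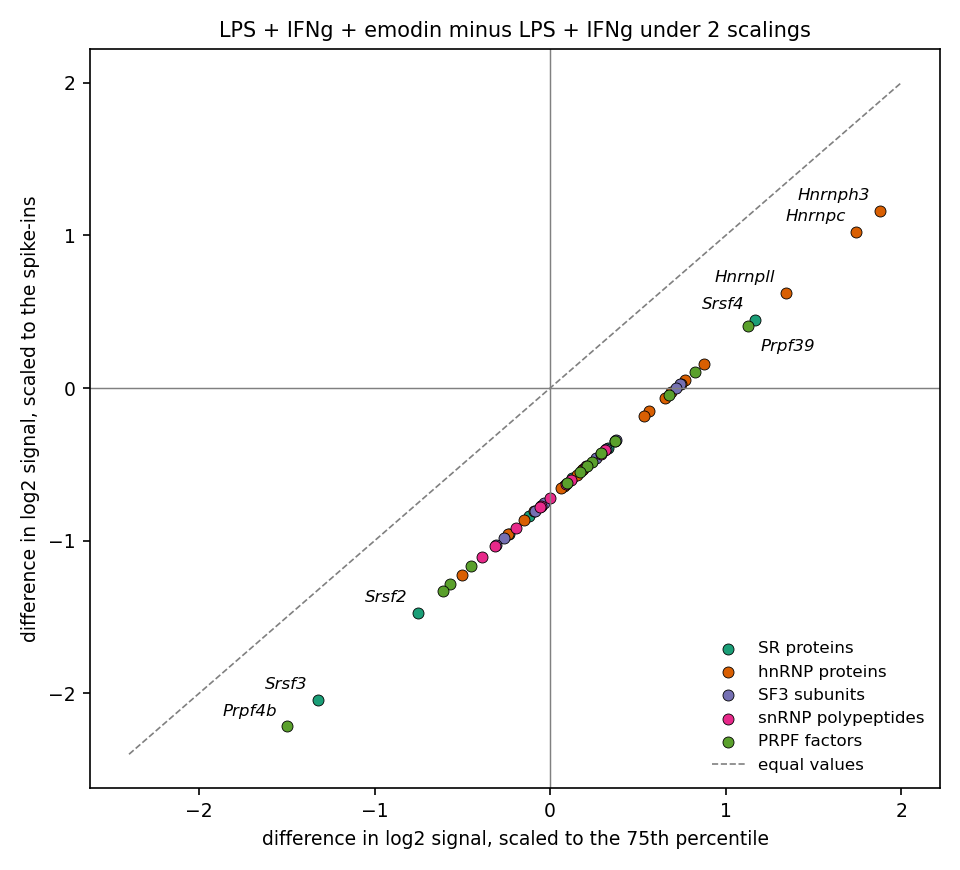
Difference in log2 signal, LPS + IFNg + emodin minus LPS + IFNg, of each member scaled to the 75th percentile of the array (horizontal) and to the spike-in probes (vertical). All points lie below the dashed line of equal values, because every gene moves by -0.72. Hnrnpc, Hnrnpll, Srsf4 and Prpf39, with differences above 1 on the horizontal axis, remain above 0 on the vertical one, as does Hnrnph3, which was detected on only some LPS + IFNg arrays.

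Scaled to the spike-ins, Hnrnpc, Hnrnpll, Srsf4 and Prpf39 had differences of 1.02 ± 0.12, 0.62 ± 0.12, 0.45 ± 0.16 and 0.41 ± 0.14 and passed. Srsf3 and Prpf4b were at -2.04 ± 0.14 and -2.22 ± 0.20, and Hnrnpdl, Prpf6, Hnrnpd and Sf3a1 did not pass, at 0.16 ± 0.13, 0.11 ± 0.14, 0.05 ± 0.16 and 0.02 ± 0.16. Which members change sign under this scaling follows from that common shift and the size of each difference, so it is no second measurement. Which members pass depends also on the fit, which here held the stimulated arrays alone. Its standard errors differed from those of the main fit (for Prpf39, 0.14 in place of 0.07).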

How the data were processed

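One-colour Agilent arrays measured RNA of 12 samples, 3 groups of 4, grouped by their titles. Intensities are the processed signals the authors deposited. The submitters' processing notes name Feature Extraction, version 10.7.3.1, and the array's design names mm9, per the file headers. Here log2 was taken and each array's 75th percentile over non-control, non-outlier spots subtracted. The authors' deposited value table holds log2 values that track quantile-normalised, probe-centred signals (array medians -0.0314 to 0.0416). Its scale and centring are inferred from that likeness. In that table the columns of 3 controls (1, 3 and 4) carry the signals of scanner files 4, 1 and 3 of the same group, so group tests are unaffected. The normexp alternative used median spot signals.

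A probe was kept when Agilent's mark for signal well above background was set on every array of some group (27375 of 55681 probes). Of these, 17160 were named through RefSeq accessions, and the GRCm38.p6 table gave names only. The brightest kept probe stood for its gene. limma 3.58.1 in R 4.3.3 fitted all 12 arrays (9 residual degrees of freedom, two-sided, Benjamini-Hochberg adjustment over 13165 genes, threshold 0.05). Arrays have no read depth, and precision rests on how many there are. Same-numbered samples of both stimulated groups deviated together (r = 0.150 to 0.283 over 4 pairs, each highest for its own number), so the numbers were taken to pair them in an alternative fit. The main fit held group alone and did not use this pairing, and counts with the replicate number as a block are given at the end. The fit was tested on simulated data.

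Members and lists were chosen with earlier results of these data known. The rule for named genes took the 8 largest rises and 8 largest falls with no overlap (4 and 4 for emodin against control), a set of well-known members whatever their values, up to 5 members each with opposite and same directions, up to 5 with opposed probes, up to 2 genes of each pathway list, and the check genes. Some genes the rule takes are not reported here. Other members and kinases were named for completeness after their values were seen. Alternatives covered scaling, background correction, filters, probes, samples and the replicate block.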

Additional observations from a re-analysis of the deposited data

Results flagged for a closer look

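For the named members, 117 sets of 4 arrays (1 member in 1 group each) were examined for a single array far from the other 3, and 2 were found, while chance alone gives about 1 in 20. Both are replicate 1 of the LPS + IFNg group. There Hnrnpd had a log2 signal of 3.87, against 4.18 to 4.23 on the other 3 arrays of that group. Hnrnpa3 had 6.51, against 6.85 to 6.88. Without that array both members were still called higher in LPS + IFNg + emodin than in LPS + IFNg cultures.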

How the results depend on the processing

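For the members named by rule, 1536 results kept their direction and side of the threshold, 56 kept only the direction, 3 newly passed and 20 changed sign. For emodin against LPS + IFNg, scaling to spike-ins gave 5 members higher and 43 lower, with a median of -0.56, and it could be run only there. It moved every gene by -0.72 and so turned the sign of 28 of the 62 members. Among those named by rule these were Srsf7 (-0.59), Hnrnpa1 (-0.029), Hnrnpa2b1 (-0.66), Hnrnpk (-0.15), Sf3b1 (-0.000181), Snrpa (-0.60), Prpf8 (-0.35), Hnrnpul1 (-0.19), Snrpd2 (-0.41), Snrpb2 (-0.43), Prpf40b (-0.042), Hnrnpa3 (-0.063) and Sf3b4 (-0.40). Hnrnpa2b1 also turned with quantile scaling (-0.067), the percentile over detected probes (-0.020), normexp (-0.13), the value table (-0.074) and the mean of its probes (-0.10). The mean of probes turned Sf3b4 as well (-0.14) and, in LPS + IFNg against control, Prpf39 (-0.30). The members' median in emodin against LPS + IFNg was 0.076 with quantile scaling and with the detected-probe percentile, 0.079 with normexp and 0.070 in the value table, where 19 were lower.

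In LPS + IFNg against control, 25 members were lower with quantile scaling and in the value table, and medians were -0.13 with quantiles, -0.12 with the detected-probe percentile, -0.12 in the value table, 0.040 with normexp, -0.070 with only the 2 controls labelled female and -0.056 without the 4 arrays that went against their sex labels. In emodin against control the medians were -0.14, -0.086, -0.14, 0.0054, 0.063 and 0.038 under the same settings. Leaving out each array in turn gave 22 to 28 members higher and 10 to 12 lower in emodin against LPS + IFNg, 14 to 19 and 13 to 17 in LPS + IFNg against control, and 28 to 29 and 18 to 22 in emodin against control. With the replicate number as a block, 29 were higher and 14 lower over the 8 stimulated arrays, and 25 and 12 over all 12, where Snrpb2 lost its call and no other named member did. The calls of Prpf8, Snrpd2, Snrpb2 and Sf3b4 were lost under several settings. The cause was not tested. Closeness to background limits Hnrnph3, and 4 arrays a group limit every value.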
